A study of Mus musculus with 12 samples.

Results

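The constitutive proteasome genes were followed in splenic dendritic cells (DCs), the antigen-presenting cells of the spleen, of 2 genotypes with and without an inflammatory stimulus. They were taken as all genes measured by a probe set with a single symbol that begins with Psma, Psmb, Psmc or Psmd and a number, leaving out the interferon-inducible Psmb8, Psmb9 and Psmb10. The rule found 37 genes on 76 probe sets among 18193 genes with such probe sets, and each gene was read from its probe set with the highest mean over the 12 arrays. Of these, 36 passed the filter on low values and belonged to the 15019 genes fitted. Psmc3ip matched the rule by its letters alone: it encodes a factor of meiotic recombination and no proteasome subunit, so counts below cover the other 35 fitted genes and Psmc3ip is given on its own. On each of the 12 arrays all 35 except Psma8 exceeded the 40th percentile of that array's values. The thymus-specific catalytic subunit Psmb11 was not fitted. Its intensity ran from 1.0 to 61.8, and it was above that percentile, which lay between 14.1 and 34.8, on 2 arrays.

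The 4 groups were WT untreated, WT treated, aly untreated and aly treated, with 3 arrays each. The aly (alymphoplasia) mice carry a mutation of Map3k14, which encodes the NF-kB-inducing kinase NIK, and the mice called WT were their heterozygous littermates, so the WT group also carries 1 mutant allele. The stimulus, given into the peritoneum, was LPS, a bacterial activator of innate immunity (25 micrograms), with an agonistic antibody to the costimulatory receptor CD40 (100 micrograms). Spleens were collected at 6 hours. Every array holds the pooled DCs of 3 mice, enriched with beads against CD11c and purified by flow sorting, with RNA amplified in 2 rounds. Spread between arrays is therefore spread between pools, and no value belongs to a single mouse.

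The proteasome is the protease that degrades ubiquitin-tagged proteins. Its barrel-shaped core is built of outer alpha rings that gate the entrance and inner beta rings that carry the catalytic sites, and a regulatory particle, made of a base with an ATPase ring and a lid, binds, unfolds and strips the substrate of ubiquitin. In DCs it also supplies peptides for MHC class I, and interferon-inducible catalytic subunits can replace the constitutive ones to form the immunoproteasome. Partial proteasomal processing of the precursor of NF-kB2, downstream of NIK, is a further well-known use of the particle in these cells.

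Proteasome promoters are known targets of NFE2L1 and NFE2L2, so the bases upstream of the start sites were searched on both strands for 4 motifs: the core of the antioxidant response element (TGANNNNGC), the CCAAT box (CCAAT), an ETS core (CCGGAAG) and an NF-kB pattern (GGGA and CC with any 4 bases between them). Of 36 subunit genes, 29 had a RefSeq window (GRCm38.p6) of 300 bases, from 250 before to 50 after the start. Psma8, Psmb1, Psmb2, Psmb7, Psmc3, Psmd3 and Psmd7 had none. The ETS core was in the windows of 34.5% of these genes against 9.93% of all 27025 genes with a window. The antioxidant response core was in 58.6% against 45%, the NF-kB pattern in 27.6% against 22.9%, and the CCAAT box in 41.4% against 41.1%. The 250 bases upstream of 4 genes of different roles are printed 5′ to 3′ with the matches to the motifs in capitals, on either strand. They are an alpha ring subunit (Psma6, at the second of its start sites in the table), a catalytic subunit (Psmb5), an ATPase (Psmc6) and a lid subunit (Psmd13).
Psma6: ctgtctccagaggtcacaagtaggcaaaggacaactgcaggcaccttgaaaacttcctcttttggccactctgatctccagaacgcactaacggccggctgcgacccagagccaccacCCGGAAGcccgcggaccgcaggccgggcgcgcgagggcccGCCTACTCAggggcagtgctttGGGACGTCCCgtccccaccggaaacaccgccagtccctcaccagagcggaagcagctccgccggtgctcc
Psmb5: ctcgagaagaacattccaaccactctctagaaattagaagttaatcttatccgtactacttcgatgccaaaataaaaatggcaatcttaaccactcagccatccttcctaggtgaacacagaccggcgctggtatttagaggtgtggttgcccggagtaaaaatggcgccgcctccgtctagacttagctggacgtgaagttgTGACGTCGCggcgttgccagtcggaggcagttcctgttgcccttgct
Psmc6: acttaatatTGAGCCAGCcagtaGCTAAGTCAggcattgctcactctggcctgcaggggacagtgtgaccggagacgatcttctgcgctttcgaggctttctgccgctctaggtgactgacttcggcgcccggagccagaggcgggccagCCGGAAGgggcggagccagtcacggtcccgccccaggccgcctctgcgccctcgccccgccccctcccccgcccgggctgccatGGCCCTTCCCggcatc
Psmd13: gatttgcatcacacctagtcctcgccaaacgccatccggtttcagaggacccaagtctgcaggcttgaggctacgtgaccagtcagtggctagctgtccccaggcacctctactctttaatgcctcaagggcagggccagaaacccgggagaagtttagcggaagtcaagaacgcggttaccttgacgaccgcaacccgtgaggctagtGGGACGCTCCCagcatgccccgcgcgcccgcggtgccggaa
The Psma6 window lies at chr12:55398575-55398824 on the plus strand and holds an ETS core, an antioxidant response core and the NF-kB pattern. The bases upstream of its first start site hold an antioxidant response core and CCAAT boxes, but neither an ETS core nor the NF-kB pattern. A gene with several windows was counted as holding a motif if any of them did. Psmb5, at chr14:54617996-54618245 on the minus strand, has 1 antioxidant response core that begins 47 bases before the start. Psmc6, at chr14:45329574-45329823 on the plus strand, holds 2 antioxidant response cores, an ETS core and the NF-kB pattern. Psmd13, at chr7:140882144-140882393 on the plus strand, shows the NF-kB pattern in overlapping matches on both strands. A match is a match of letters and was not tested for binding. In WT mice the 16 fitted genes with the antioxidant response core had a median log2 change on treatment of 0.09 and the 12 without it 0.32, and the ranges overlapped (-0.63 to 0.72 and -0.71 to 0.77). Medians were 0.04 with and 0.34 without the ETS core, and -0.01 with and 0.30 without the NF-kB pattern.

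Treatment of WT mice moved few of these genes past the test. Psmd7, a lid subunit, rose 3.43-fold and Psma8, the alpha subunit known from testis, fell, while the other 33 did not pass an adjusted p of 0.05. The count of 2 among 35 stands beside 9.71% of all genes called in this comparison (4.95% higher and 4.75% lower). No further member had an unadjusted p under 0.05, against 23.1% of all genes. The median log2 change was 0.14 over the 35 genes and -0.12 over all fitted genes, and 20 of the 35 estimates were above 0, against 42.7% of all genes. The 3 treated arrays were above the 3 untreated ones, with no overlap, for 9 of the 35 (25.7%, against 14.3% of all genes), namely Psma3, Psma4, Psma5, Psma6, Psma7, Psmb6, Psmd3, Psmd7 and Psmd11. They were below for 3 (Psma8, Psmb3 and Psmd6, or 8.57%, against 22.1% of all genes). The 95% interval lay within a log2 change of 1 in either direction for 9 of the 35 genes, so for the other 26 a doubling or a halving was not excluded by the interval.

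In aly mice none of the 35 was called on treatment (limma), where 0.486% of all genes were. At an unadjusted p under 0.05, 2 were lower (Psma8 and Psmb2) and 0 higher, against 12.9% of all genes in either direction. The median change was -0.00, beside -0.08 over all genes, and 17 of 35 estimates were above 0 (45% of all genes). No gene had all treated aly arrays above all untreated ones, against 6.02% of all genes, and Psmb2 and Psmd5 had all of them below, against 8.56%. The difference between the responses of the genotypes was called for 0 of 35, where 0.153% of all genes were called, and 0 of 35 had an unadjusted p under 0.05 (8.02% of all genes). The median interaction was -0.09, 14 of 35 estimates were above 0 (52.2% of all genes), and the estimates came with intervals that reached beyond 1 in at least 1 direction for all 35, so a difference in response between the genotypes of that size was not excluded for any of them.

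**Figure D1:**
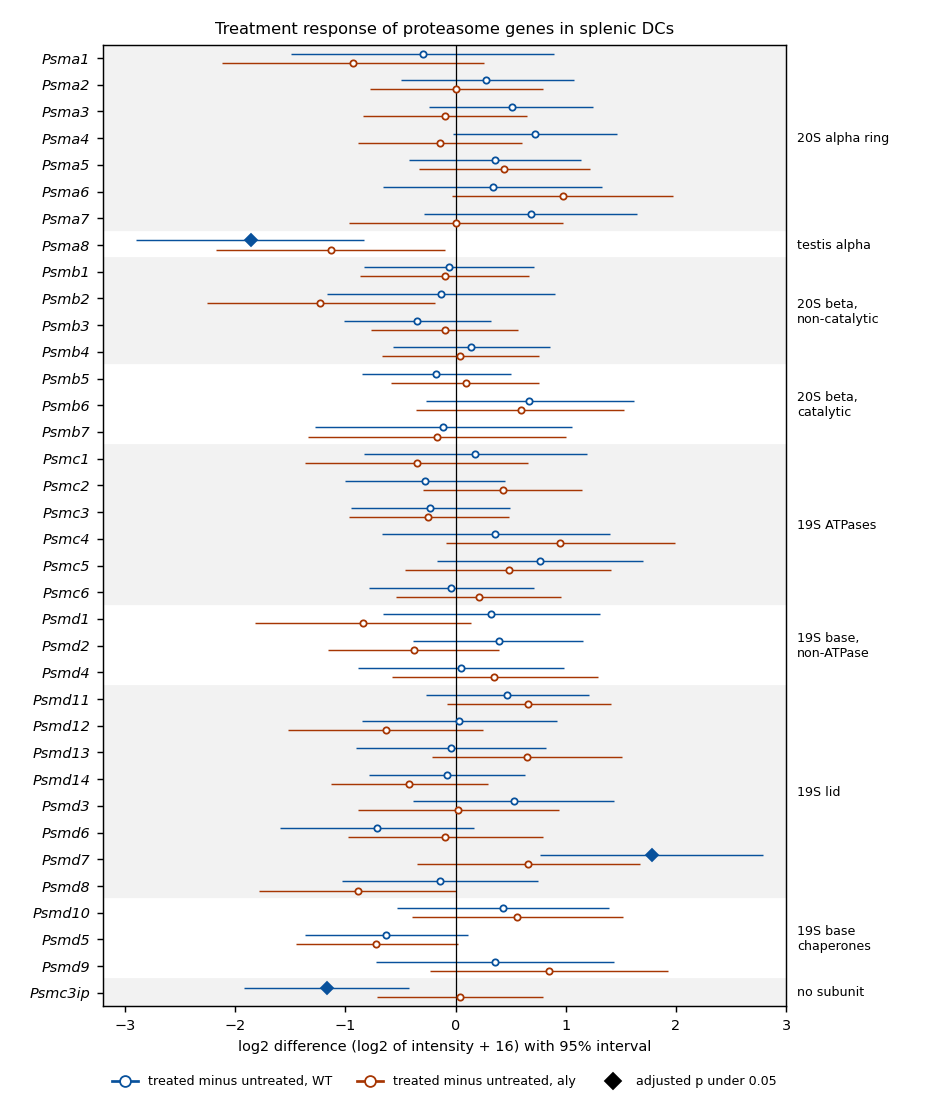
Log2 treatment difference of each fitted gene (x axis, log2 of intensity plus 16) with its 95% interval, for WT (blue) and aly (brown) DCs, grouped by role; filled diamonds have an adjusted p under 0.05. Psmd7, Psma8 and Psmc3ip carry the only diamonds, all in WT, and the intervals of the 2 genotypes overlap for every gene.

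Genotype differences among untreated mice were not called for any of the 35 genes (limma), where 0.553% of all genes were. The lid subunit Psmd3 alone had an unadjusted p under 0.05, against 10.5% of all genes. The median difference, aly minus WT, was 0.20 over the 35 and 0.10 over all genes, and 23 of 35 estimates were above 0 (57.7% of all genes). Arrays did not overlap for 7 genes that were higher in aly (against 12.9% of all genes): Psmb6, Psmd2, Psmd3, Psmd4, Psmd9, Psmd11 and Psmd13. They were lower without overlap for 0 (9.86% of all genes). With each array centred on its median over all probe sets the median over the 35 became -0.06, and that over all genes -0.15, so the sign of these medians depends on the scaling. This comparison and the WT treatment share the 3 WT untreated arrays.

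Among treated mice, 0 of the 35 were called between genotypes (limma), beside 5.37% of all genes. At an unadjusted p under 0.05, 3 were higher in aly (Psma8, Psmd9 and Psmd13) and 4 lower (Psmb2, Psmd1, Psmd8 and Psmd14), against 22.9% of all genes in either direction. Arrays were higher in aly without overlap for 6 genes (Psmb3, Psmc2, Psmc4, Psmd4, Psmd9 and Psmd13, or 17.1%, against 14.1% of all genes) and lower for 4 (Psmb2, Psmd7, Psmd8 and Psmd14, or 11.4%, against 10.1%). Of the 35 estimates 19 were above 0 (59.9% of all genes). The median was 0.15, beside 0.19 over all genes, and it was -0.20 after median centring, with -0.16 over all genes.

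Array quality and other cells moved with these groups. The pan-DC markers (Itgax, Flt3, Zbtb46, H2-Aa, H2-Ab1 and Cd74) were read on all arrays, with sums between 28742 and 95645. These sums are made up mostly of H2-Aa, H2-Ab1 and Cd74. The highest sum came from the first aly treated array, where these 3 read 48745, 19887 and 26472. Itgax (230), Flt3 (267) and Zbtb46 (44) had the lowest of their 12 values on that array. On WT treatment the estimates of all 6 markers were below 0 (median -0.54), with none called. Summed intensities of 10 red pulp macrophage markers were 6050.3 to 19337 in WT untreated and 2743 to 17377 in WT treated DCs. In aly DCs they were 36417 to 51892 untreated and 28092 to 66073 treated. Called higher in aly were 5 of the 10 among untreated mice and 5 among treated mice. Of all 15019 fitted genes, 75 and 411 were called higher in aly in these 2 comparisons. Of 4 measured erythroid markers, 1 was called higher in aly untreated and 2 in aly treated DCs, beside the same counts of all genes. On WT treatment 3 of 5 measured markers of CD8 alpha positive DCs were called lower, against 4.75% of all genes. Batf3, of the same list, had an estimate above 0 (0.67), with all treated arrays above the untreated ones. Markers of other cell types were called in both directions, among them 2 of 3 monocyte markers (lower) and 2 of 4 plasmacytoid DC markers (higher). The part of these shifts in the results on proteasome genes was not tested, and in sorted bulk cells fewer cells of a type cannot be told apart from less RNA per cell. The first aly treated array stood apart: its Actb signal was 55.8 times higher at the 3' than at the 5' end, and the mean log2 ratio for Actb and Gapdh was 5.66, against 1.37 to 1.83 on the WT and 2.17 to 3.11 on the other aly arrays. It held the highest or lowest of the 12 values for 26 of the 35 genes (74.3%, against 53.2% of all genes), 15 of them the highest and 11 the lowest. Gene values without it are given where they differ by over 1.5 times.

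**Figure D2:**
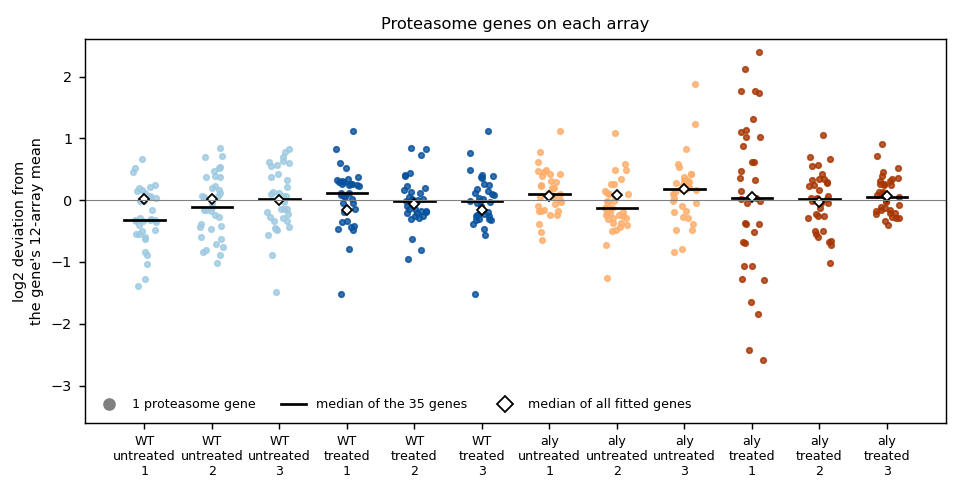
Deviation of each of the 35 genes from its own mean over the 12 arrays (y axis, log2), 1 column of points per array, with the median of the 35 genes (bar) and of all fitted genes (diamond). Points spread most on the first aly treated array, and the medians stay between -0.32 and 0.18 on all arrays.

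Alpha ring subunits form the gate of the core. In WT mice 6 of the 7 had estimates above 0 on treatment (median 0.36, range -0.30 to 0.72), 5 of them without overlap between the groups (14.3% of all genes were higher without overlap), and none was called. Psma4 had the smallest p. It read 734, 918 and 733 on the WT untreated arrays and 1211, 1359 and 1370.2 on the WT treated ones, all above the untreated. The log2 change was 0.72 ± 0.35 (SE, n = 3 per group, adjusted p = 0.24). In aly DCs Psma4 read 1275, 867 and 1231 without and 1435, 729 and 961 with treatment, overlapping throughout, with a change of -0.14 ± 0.35 and an interaction of -0.86 ± 0.50 (adjusted p = 0.70). Without the first aly treated array the aly change was -0.40. Psma7 had a WT change of 0.68 ± 0.46, and its second probe set gave the same 0.68.

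Psma6 was far higher on 1 array than on the other 11. Its values were 4185, 5025 and 3999 (WT untreated), 6278, 5252 and 5149.5 (WT treated), 6209, 4975 and 4206 (aly untreated) and 25765, 6613 and 5768 (aly treated). The WT treated arrays were all above the WT untreated ones by a small margin (0.34 ± 0.47, adjusted p = 0.76), and the other 3 probe sets of Psma6 gave 0.15 to 0.71. The aly change of 0.97 ± 0.47 (adjusted p = 0.39) became 0.29 without the first aly treated array. Psma1 went the other way on that array, at 319 against 2347 and 2004 on the other aly treated arrays, and its aly change of -0.93 became -0.03 without it. The other 3 probe sets of Psma1 gave aly changes of 0.42 to 1.31. Between genotypes no alpha ring subunit was called.

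Psma8 is the alpha subunit that takes the place of Psma7 in the proteasome of male germ cells, and its probe set was dim in these DCs. The WT untreated arrays read 63.4, 53.7 and 59.7 and the WT treated ones 1.4, 12.5 and 1.5, with no overlap. Psma8 fell by 1.86 ± 0.49 on the log2 scale in WT (SE, n = 3 per group, adjusted p = 0.024). All treated values are under the offset of 16, so the size of this fall is set by the offset. In aly DCs it read 49.9, 54.2 and 168.5 without and 4.4, 51.2 and 43.1 with treatment, which overlap. The aly change of -1.13 was not called (adjusted p = 0.36) and became -0.59 without the first aly treated array. The WT call was lost without WT untreated array 1 (adjusted p = 0.085), 2 (0.062) or 3 (0.08), without WT treated array 1 (0.099) or 3 (0.11), and with median centring (0.065). Psma8 was 1.07 ± 0.49 higher in aly among treated mice (adjusted p = 0.20), and without the first aly treated array this became 1.62 with an adjusted p of 0.029.

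The non-catalytic beta subunits Psmb1 to Psmb4 shape the inner rings. Their WT changes ran from -0.35 to 0.14, with a median of -0.10 and none called. Psmb3 read 4131, 3308 and 3744 on WT untreated and 2593, 3147 and 3033 on WT treated arrays, with the treated ones all lower. The change was -0.35 ± 0.31 (adjusted p = 0.59), and its second probe set gave -0.42. In aly the Psmb3 values of 4239, 3540.2 and 4334 untreated and 3939, 3473 and 3855 treated overlapped, and the aly treated arrays were all above the WT treated ones (0.36 ± 0.31, adjusted p = 0.52), where the second probe set gave -1.30.

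Psmb2 carried the lowest p of this group in aly mice. It read 626, 536 and 580.5 on aly untreated and 80.1, 407 and 389 on aly treated arrays, all lower. The WT arrays, at 692, 545 and 900.1 untreated and 604, 495 and 855 treated, overlapped. The aly change was -1.23 ± 0.49 (adjusted p = 0.34) and the difference from WT among treated mice -1.36 ± 0.49 (adjusted p = 0.11). Without the first aly treated array they were -0.53 and -0.65. Psmb1 was the member of the group with the smallest p between untreated genotypes. It read 701, 974 and 1372 on WT and 1135, 1382 and 1343 on aly untreated arrays, which overlap, a difference of 0.38 ± 0.36 (adjusted p = 0.76), and its other probe sets gave 0.53 and -1.01. With treatment it read 773, 909 and 1169 in WT and 1409, 1382 and 884 in aly DCs.

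The constitutive catalytic subunits Psmb5, Psmb6 and Psmb7 carry the chymotrypsin-like, caspase-like and trypsin-like sites. Psmb6 read 1620.1, 1119 and 1079 on WT untreated and 2410.3, 1683 and 1983 on WT treated arrays. All treated values were higher, with a change of 0.67 ± 0.45 that was not called (adjusted p = 0.42). The aly arrays of Psmb6 read 2696, 1734 and 1944 untreated and 6923, 2472 and 1807 treated. The untreated aly arrays were all above the untreated WT ones (0.73 ± 0.45, adjusted p = 0.61), and the aly treatment change of 0.59 became 0.02 without the first aly treated array. Psmb5 stayed between 1955 and 2939 on all 12 arrays and had the narrowest interval of the 3 (-0.18, from -0.85 to 0.50, in WT), which excludes a doubling and a halving. Psmb7 ranged from 796 to 4160 with replicates of every group far apart, and its WT change was -0.11 ± 0.55.

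Interferon-inducible partners of these 3 subunits were measured beside them. Psmb10, which replaces Psmb7, read 1175, 1247 and 1236 on WT untreated and 4811, 3151 and 4000.0 on WT treated arrays, without overlap. It rose 3.19-fold in WT (log2 change 1.68 ± 0.47, adjusted p = 0.034), a call lost without any 1 of the 3 WT untreated arrays (adjusted p = 0.11, 0.088 and 0.1) or without WT treated array 1 (0.14) or 3 (0.12), and with an offset of 1 (0.084). Psmb8, which replaces Psmb5, read 2414, 2076 and 2574 untreated and 3899, 4758 and 5225 treated in WT (0.97 ± 0.33, adjusted p = 0.081), again without overlap. Psmb9, the partner of Psmb6, had a WT change of 0.50 ± 0.32 (adjusted p = 0.39). In aly the changes of Psmb8, Psmb9 and Psmb10 were 0.14, -0.15 and 0.72, with none called, and -0.01, -0.21 and 0.13 without the first aly treated array. Their interactions of -0.83, -0.65 and -0.96 did not pass the test (adjusted p = 0.70, 0.75 and 0.75), and that of Psmb10 was -1.54 without that array. A second, dimmer probe set of Psmb8, which can match related sequences, gave 0.72 in WT and 1.61 in aly, so its interaction of 0.89 had the opposite sign.

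Within each array the log2 difference between partner and constitutive subunit was also compared. On WT treatment it shifted by 1.14 for Psmb8 with Psmb5, -0.17 for Psmb9 with Psmb6 and 1.79 for Psmb10 with Psmb7. In aly the shifts were 0.05, -0.74 and 0.89, and -0.14, -0.22 and -0.30 without the first aly treated array. With 3 arrays against 3 the smallest p of a two-sided exact permutation test is 0.1, which the WT shifts of the Psmb8 and Psmb10 pairs reached. It was also reached by the Psmb8 pair between untreated genotypes (0.40, all aly arrays higher) and the Psmb9 pair between treated genotypes (-1.22, all aly arrays lower, and -0.71 without the first aly treated array), and no adjusted p over the 12 tests was under 0.3. Psme1, a subunit of the PA28 activator that caps the core, had a WT change of 0.89 ± 0.32 (adjusted p = 0.098) and an aly change of -0.02 (-0.08 without the first aly treated array).

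**Figure D3:**
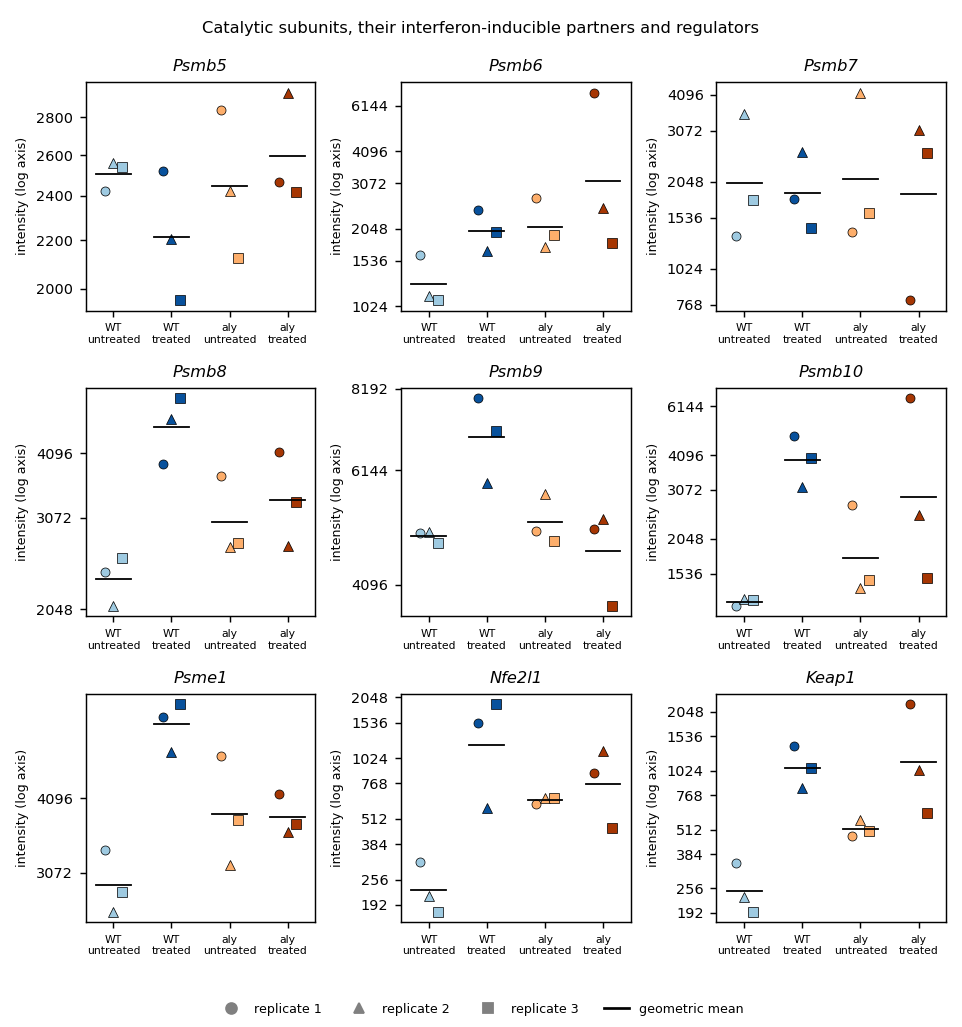
Intensity on each array (y axis, log scale with its own range per panel) of the constitutive catalytic subunits (top), their interferon-inducible partners (middle), and Psme1, Nfe2l1 and Keap1 (bottom), with replicate numbers as symbols and geometric means as bars. For Psmb6, Psmb8, Psmb9, Psmb10, Psme1, Nfe2l1 and Keap1 the WT treated arrays lie above all WT untreated ones, and for Psmb5 and Psmb7 they overlap.

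The ATPase ring, Psmc1 to Psmc6, unfolds substrates and opens the gate of the core. None of the 6 was called in any comparison, and no WT treatment change was without overlap (range -0.28 to 0.77). Psmc5 had the smallest p in WT, with 348, 969 and 676 on untreated and 1339, 940.4 and 923 on treated arrays. These overlap, and the change was 0.77 ± 0.44 (adjusted p = 0.33). In aly Psmc5 read 819, 1403 and 664 untreated and 903, 1946 and 1189.7 treated, a change of 0.48 ± 0.44 (adjusted p = 0.65) that was 0.73 without the first aly treated array.

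Psmc4 was the ATPase with the smallest p in the aly treatment. Its aly arrays read 2194, 1308 and 787 untreated and 2904, 2136 and 2679.9 treated. Those groups overlap, with a change of 0.95 ± 0.49 (adjusted p = 0.41). On WT arrays Psmc4 read 1591, 1177 and 499 untreated and 1745, 728 and 1589 treated, and every aly treated value was above every WT treated one (1.00 ± 0.49, adjusted p = 0.23). A second probe set of Psmc4 gave -0.89 ± 0.35 for the same comparison, so the direction differs between probe sets. Psmc2 also had all aly treated arrays above the WT treated ones (0.60 ± 0.34, adjusted p = 0.31), from a probe set that can match related sequences. Its other probe sets gave -1.01 ± 0.47 and -0.10 ± 0.37. Psmc6 had an interval of -0.79 to 0.71 on WT treatment, and none of its comparisons exceeded 0.25 in size. Of its 2 dimmer probe sets the brighter gave -1.05 ± 0.44 between untreated genotypes.

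The non-ATPase subunits of the base are Psmd1 and Psmd2, the scaffolds that dock substrate carriers, and Psmd4, a ubiquitin receptor. Psmd2 read 2479, 1863 and 2535 on WT untreated and 3765, 2161 and 3227 on WT treated arrays, which overlap (0.39 ± 0.37, adjusted p = 0.61). Its aly arrays, at 2713, 2656 and 2823 untreated, were all above the WT untreated ones by 0.26 ± 0.37 (adjusted p = 0.85), and at 1544, 3133 and 1882 treated they spread on both sides. Psmd1 read 1145, 1164 and 1340.3 on aly untreated and 287, 888 and 1168 on aly treated arrays. Its WT values were 801, 1557 and 1152 untreated and 1349, 1913 and 1099.9 treated, and the aly treated arrays overlap them. The difference among treated mice was -1.06 ± 0.46 (adjusted p = 0.18), or -0.47 without the first aly treated array.

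Psmd4 read 1105, 916 and 1241 on WT untreated and 1909, 1246 and 1789.8 on aly untreated arrays, without overlap (0.58 ± 0.44, adjusted p = 0.70). With treatment it read 1111, 1159 and 1077 in WT and 4764, 1436 and 1303 in aly. All aly values were again higher, by 0.89 ± 0.44 (adjusted p = 0.24), and by 0.29 without the array that read 4764. Its other probe sets gave 0.43 and -0.65. Neither difference passed the test.

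The lid removes ubiquitin from the bound substrate, and 1 of its 8 subunits was called. Psmd7, which pairs with the deubiquitinase Psmd14, read 67.5, 99.9 and 150.2 on WT untreated and 423, 319 and 425 on WT treated arrays. The groups did not overlap, and the lowest treated value was above the highest untreated one by more than the spread of either group. Psmd7 rose by 1.78 ± 0.48 on the log2 scale, or 3.43-fold (SE, n = 3 per group, adjusted p = 0.027). On aly arrays it read 332, 68.8 and 101 untreated and 294, 158 and 237 treated. Those overlap, since the first untreated aly array was as high as the WT treated ones, and the aly change was 0.66 ± 0.48 (adjusted p = 0.55). The difference between the responses was -1.12 ± 0.67 (adjusted p = 0.71), so the responses are not shown to differ.

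The rise of Psmd7 rested on 1 of its 3 probe sets. The other 2 gave 0.47 ± 0.45 and -0.46 ± 0.43, and with the mean of all probe sets of the gene the change was 0.60 (adjusted p = 0.27). It was not called with an offset of 1 (adjusted p = 0.069), nor without WT untreated array 1 (1.53, adjusted p = 0.13) or 2 (1.77, 0.077) or WT treated array 1 (1.71, 0.098) or 3 (1.71, 0.11). Its partner Psmd14 had a WT change of -0.08 ± 0.34.

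**Figure D4:**
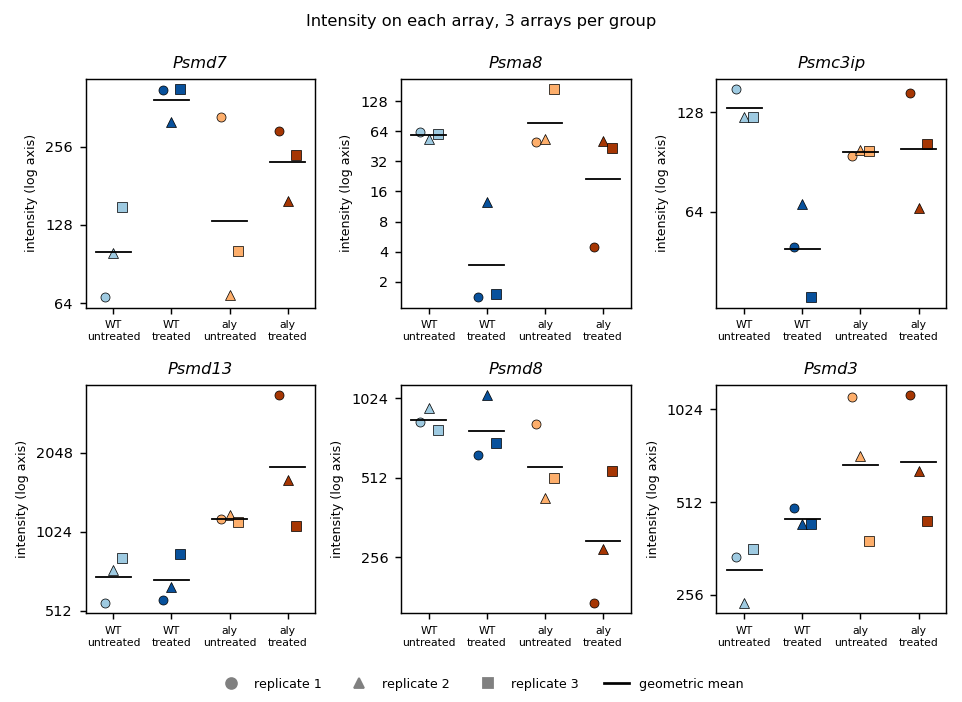
Intensity on each of the 3 arrays per group (y axis, log scale with its own range per panel) for 6 genes, with replicate numbers as symbols and geometric means as bars. Psmd7 is higher, and Psma8 and Psmc3ip lower, on all WT treated than on all WT untreated arrays, while Psmd13 and Psmd8 separate the treated arrays by genotype.

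Psmd13 and Psmd8 had the smallest p-values of the lid between treated genotypes. Psmd13, a structural subunit, read 564, 633 and 844 on WT treated and 3395, 1609.9 and 1082 on aly treated arrays, all higher. Its untreated arrays read 549, 730.3 and 817 in WT and 1142, 1184 and 1116 in aly, which do not overlap either. The difference was 1.41 ± 0.40 among treated (adjusted p = 0.053) and 0.72 ± 0.40 among untreated mice (adjusted p = 0.56). Without the first aly treated array the first became 0.96, and without the third it became 1.78 and was called (adjusted p = 0.017). It was also called with replicate 1 against the others as a block (adjusted p = 0.044). The other 3 probe sets of Psmd13 gave 1.18, 0.45 and -0.24.

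Psmd8, a lid subunit needed for the last steps of its assembly, was lower in treated aly DCs, at 172, 275 and 544 against 622, 1049.9 and 694 in WT. All aly treated values were below all WT treated ones. The untreated arrays read 831, 943 and 775 in WT and 815, 431 and 509 in aly, which overlap. The treated difference of -1.33 ± 0.42 was not called (adjusted p = 0.076) and became -0.96 without the first aly treated array. Without the third it was -1.75 and called (adjusted p = 0.019).

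Psmd3, a further lid subunit, read 339, 241 and 359.7 on WT untreated and 1120.1, 719.5 and 382 on aly untreated arrays. No array overlapped, yet the lowest aly value was near the highest WT one, and the difference of 1.09 ± 0.43 was not called (adjusted p = 0.37). Treated arrays read 490, 434 and 433 in WT and 1136, 646 and 444 in aly (0.59 ± 0.43, adjusted p = 0.43), a difference that was 0.24 without the first aly treated array. Psmd3 lies on chromosome 11, 4.52 megabases (Mb) from Map3k14. Psmc5, Psmd12, Psmb3, Psmd11 and Psmb6 lie on it too, at 2.99, 4.21, 5.51, 22.75 and 32.69 Mb from Map3k14. Their untreated genotype differences were 0.57, -0.11, 0.11, 0.20 and 0.73. Psmc3ip, which is no subunit, lies at 2.12 Mb, with all untreated aly arrays below the WT ones (-0.39 ± 0.35, adjusted p = 0.75). Whether linkage plays a part was not tested. The other lid subunits, Psmd6, Psmd11, Psmd12 and Psmd14, were called in no comparison, with WT changes of -0.71, 0.47, 0.03 and -0.08.

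**Figure D5:**
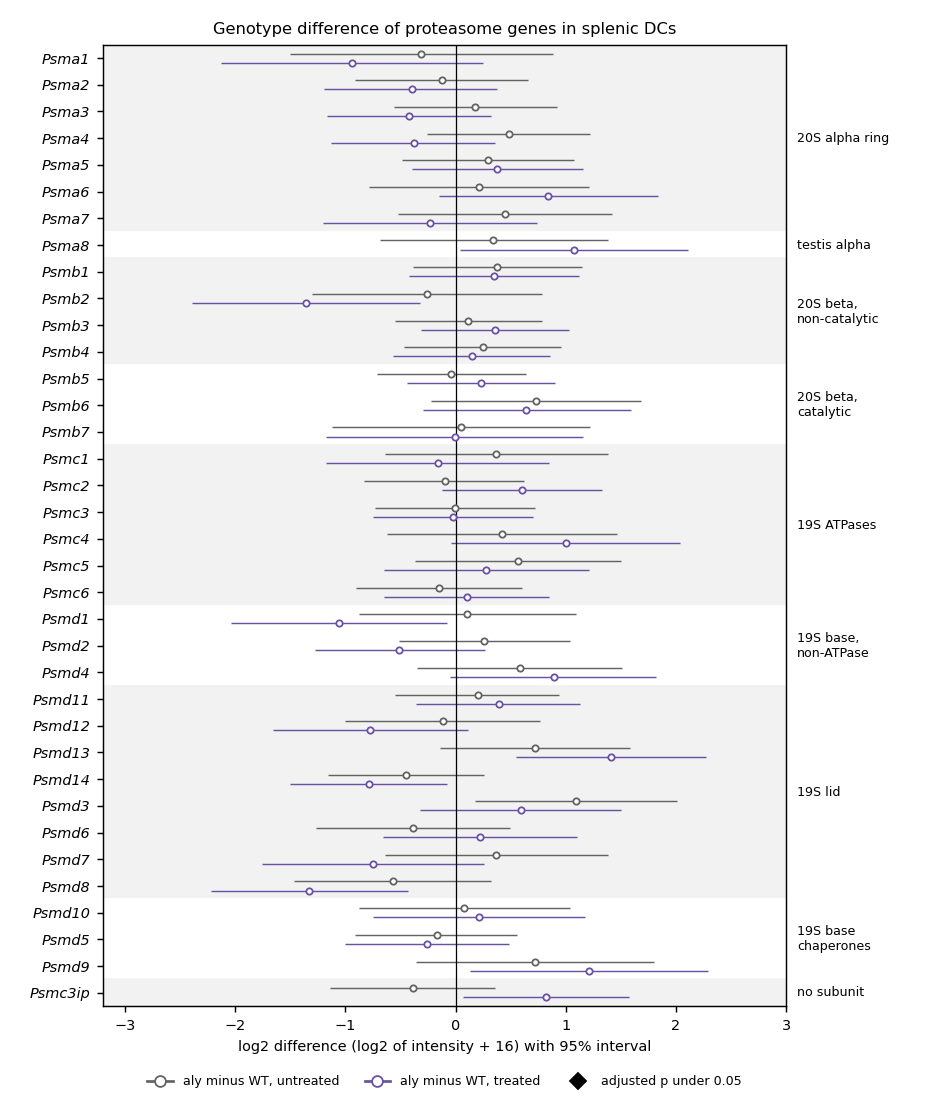
Log2 genotype difference (aly minus WT) of each fitted gene (x axis, log2 of intensity plus 16) with its 95% interval, for untreated (grey) and treated (purple) DCs, grouped by role. No marker is filled because no gene passed an adjusted p of 0.05, and Psmd13 (1.41) and Psmb2 (-1.36) lie farthest from 0.

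Psmd5, Psmd9 and Psmd10 are chaperones that assemble the base and leave the mature particle. Psmd5 read 305, 431 and 489 on WT untreated and 214, 323 and 234 on WT treated arrays, which overlap (-0.63 ± 0.35, adjusted p = 0.31). In aly it read 341, 287 and 450.2 untreated and 223, 172 and 237 treated, all lower, with a change of -0.72 ± 0.35 (adjusted p = 0.39) that was -0.76 without the first aly treated array. Both genotypes thus had estimates of like size, and neither passed the test. Psmd9 read 92.9, 103 and 145 on WT untreated, 144, 147 and 152 on WT treated, 259.6, 161 and 173 on aly untreated and 1048, 281 and 157 on aly treated arrays. All aly arrays were above the WT arrays of the same treatment, by 0.72 ± 0.51 (adjusted p = 0.67) and 1.21 ± 0.51 (adjusted p = 0.17), and the second was 0.47 without the array that read 1048. Without the third aly treated array it was 1.78 (adjusted p = 0.031). Psmd9 had 3 filtered probe sets, and these values are from the brightest alone.

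Psmc3ip, which is no subunit, read 149.9, 124 and 124 on WT untreated and 50.3, 67.5 and 35.4 on WT treated arrays, without overlap. It fell by 1.17 ± 0.35 on the log2 scale (adjusted p = 0.047). The aly arrays read 94.1, 98.5 and 97.9 untreated and 146, 65.8 and 102 treated, a change of 0.04 ± 0.35 (-0.20 without the first aly treated array). A second probe set gave -0.67 in WT and -0.93 in aly. The call was lost in 9 of 12 fits that each left out 1 array, with adjusted p from 0.011 to 0.21 over the 12. The exceptions were the fits without WT treated array 2 and without aly treated array 1 or 2. It was also lost with an offset of 1 (adjusted p = 0.061), median centring (0.062), quantile normalization (0.078) and the mean of its probe sets (0.05). The same held on replicates 2 and 3 alone (0.12) and with centring on the median of the fitted genes (0.093).

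Genes that feed or control the proteasome were read from 9 lists of 49 genes, of which 40 were fitted. In WT mice 3 of the 40 rose on treatment (Psmb10, Nfe2l1 and Keap1) and 0 fell, beside 4.95% and 4.75% of all genes. Nfe2l1, the transcription factor that raises proteasome genes when degradation is short, read 312, 211 and 177 on WT untreated and 1521, 577 and 1896 on WT treated arrays. All treated values were higher, and Nfe2l1 rose 4.94-fold (2.31 ± 0.45, adjusted p = 0.0043, and at most 0.038 with any array left out). In aly it read 605, 653 and 647 untreated and 866, 1114 and 459.6 treated, a change of 0.26 ± 0.45 (adjusted p = 0.83) that was 0.17 without the first aly treated array. The difference between the responses was -2.04 ± 0.64 (adjusted p = 0.35), and untreated aly arrays were all above the untreated WT ones (1.42 ± 0.45, adjusted p = 0.23). Nfe2l2, its relative of the oxidative stress response, had changes of -0.61 in WT and -0.58 in aly, with neither called. The aly value was 0.24 without the first aly treated array, and the second probe set gave 1.07 in WT and 0.89 in aly.

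Keap1, which marks NFE2L2 for degradation, read 347, 231 and 194.5 on WT untreated and 1362, 833 and 1059 on WT treated arrays. It rose by 2.02 ± 0.43 without overlap (adjusted p = 0.0077), and its second probe set gave 1.91. In aly it read 475, 576 and 502 untreated and 2243, 1033 and 620.4 treated, also without overlap, but the change of 1.11 ± 0.43 was not called (adjusted p = 0.33) and was between 0.62 and 1.53 with 1 array left out. The second, dimmer probe set gave -0.35 ± 0.39 in aly, the opposite sign. The 5 chaperones that assemble the core were called in no comparison of treatment, with a WT median of -0.56. Of 7 genes of the p97 segregase, which extracts tagged proteins for the proteasome, 6 had WT estimates above 0 (median 0.76) and none was called.

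Shuttle factors bring ubiquitin-tagged proteins to the particle, and 4 of 6 were fitted. Ubqln4 read 203, 135 and 189 on WT treated and 438, 594 and 375 on aly treated arrays, without overlap. It was 1.33 ± 0.35 higher in aly (adjusted p = 0.037). Of the 40 fitted genes of the 9 lists it was the only one called between genotypes. Of all genes, 5.37% were called between treated and 0.553% between untreated genotypes. The untreated difference of Ubqln4 was 1.34 ± 0.35 (adjusted p = 0.11), from 159, 122 and 128 in WT and 362, 482 and 285 in aly. The treated call was lost in 8 of 12 fits that left out 1 array, with adjusted p between 0.028 and 0.14 (it held without aly untreated array 2 or 3 and without aly treated array 1 or 3). It was also lost with median centring (0.98, adjusted p = 0.2), an offset of 1 (0.074), the mean of its probe sets (0.062) and the treated groups alone (0.16). The same held on replicates 2 and 3 alone (0.061) and with centring on the median of the fitted genes (0.093).

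Probe sets of the same gene often disagreed. Of the 35 genes, 19 had several filtered probe sets. All of a gene's probe sets had the same sign in 10 of 19 for the WT treatment, 5 for the aly treatment, 10 between untreated and 5 between treated genotypes. In the interaction it was 2 of 19. Psma6 and Psmc2 were read from probe sets that can match several related sequences, and Psmd11 and Psmc3ip from ones shared by several transcripts, so their values are less certain.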

How the data were processed

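Gene expression was measured on Affymetrix mouse arrays, 12 in all, in 4 groups of 3. The authors deposited a linear intensity for each of 45101 probe sets, and every array has the same 2% trimmed mean of 150.0. Their software and background correction were not given in the sources used here. Probe sets with 1 gene symbol were kept if above the array's 40th percentile on at least 3 arrays, and the one with the highest mean of the log2 value represented a gene. Values were transformed as log2(intensity + 16), which understates changes of dim genes, without further normalization. Linear models with 1 mean per group and 5 contrasts were fitted to all genes in limma 3.58.1 (R 4.3.3), with Benjamini-Hochberg adjustment over 15019 genes per contrast and calls at an adjusted p under 0.05. Adjusted p-values are from this fit, except where an alternative fit or the permutation test is named. Errors are its standard errors (8 residual degrees of freedom, prior 8.04), with a median of 0.43 log2 units (0.61 for the interaction). Values of further probe sets of a gene are from the same model fitted to all filtered probe sets of 1 symbol. The number of arrays limits the precision. The script was tested on simulated data.

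The members, lists, motifs and tests were chosen with earlier results of these data known. Every member may be named, with values on all arrays for called members or, in roles without a call, for the one with the smallest p. Outside the module, the immunoproteasome, PA28 and NFE2L genes and up to 4 genes with the smallest p of each list and contrast may be named. Psme2 was not measured by a probe set of 1 symbol.

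Alternatives were an offset of 1, no filter, median centring, quantile normalization, the mean of a gene's probe sets, blocks, fits to fewer arrays and each array left out. Replicates of 1 number did not all deviate together (18 pairs, correlations from -0.031 to 0.303), and the main fit used no block for the number. Their mean correlation was 0.11, against -0.06 for other pairs, and 9 of 12 arrays correlated best with an array of their own number. A block for the number was tried as an alternative. Replicate 1 arrays differ from replicates 2 and 3 in their spike-in signals, which was tried as a batch.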

Additional observations from a re-analysis of the deposited data

How the results depend on the processing

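Counts of called proteasome genes and their medians kept their side in most alternatives. On WT treatment the count of called genes fell from 2 to 1 with an offset of 1, with median centring and with the mean of all probe sets, and ran from 0 to 2 over the 12 fits that each left out 1 array; between treated genotypes it was 1 with a block for the spike-in batch (Psmd13) and 1 with centring on the fitted genes, an alternative chosen after seeing the data (Psmd8), and from 0 to 3 with 1 array left out. It was 0 in the other 3 comparisons in all such fits. The median over the genes was 0.00 on replicates 2 and 3 alone and 0.34 with centring on the fitted genes in WT treatment (0.06 to 0.21 with 1 array left out), and -0.09 with quantile normalization and 0.08 with that centring in aly treatment (-0.06 to 0.11). Between untreated genotypes it was -0.06 with median centring, 0.05 with the mean of probe sets and 0.06 with centring on the fitted genes (0.07 to 0.22), between treated genotypes -0.20, -0.01 and -0.11 (0.02 to 0.17), and in the interaction -0.18 with median and -0.20 with fitted-gene centring (-0.25 to 0.10). Over all genes, the calls of WT treatment were 898 with an offset of 1, 893 with median centring and 2895 in the groups compared alone (587 to 2843 with 1 array left out). Those of aly treatment were 11, 45 and 6, then 120 with the spike-in block and 28 on replicates 2 and 3 alone (13 to 102). Untreated genotype calls were 0 with an offset of 1 and with median centring, 39 without the filter, 133 with the replicate block, 176 with the spike-in block, 231 on replicates 2 and 3, 393 in the groups compared and 43 with fitted-gene centring (0 to 396). Treated genotype calls were 507 with median centring (84 higher and 423 lower, against 411 and 396 as reported), 231 with an offset of 1 and 27 in the groups compared (81 to 1544). Interaction calls were 1 with an offset of 1, 12 without the filter, 8 with median centring, 9 with quantile normalization and 5 on replicates 2 and 3 (1 to 113). The split of WT calls was 609 higher and 284 lower with median centring, against 744 and 714. With the replicate block the calls on proteasome genes did not change; the 12 arrays correlated best with an array of their own number in 9 cases. Fits to fewer arrays have fewer degrees of freedom, and the causes of these shifts were not tested.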
